A study of Homo sapiens with 23 samples.

Results

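A set of 21 genes had at least 50 rounded counts in each of the 3 wild-type HCT116 samples and at most 10 in each of the 3 *AGO1/2/3* knockout samples, with chromosome Y left out. They were 21 of the 14031 genes that reached the wild-type limit (0.15%) and of 57875 genes listed. Of the 21, 16 were protein-coding and 5 were long noncoding RNA (lncRNA) genes. Wild-type and *AGO1/2/3* knockout samples chose the genes, so the difference between these lines is given for them as a description without a test. Cells lacking AGO1, AGO2 or both did not enter the choice, and the rule set no limit on the levels in those lines.

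HCT116 is a human colorectal carcinoma line. CRISPR editing gave 4 knockout (KO) lines from it, 1 per genotype: *AGO1* KO (AGO1-/-), *AGO2* KO (AGO2-/-), *AGO1/2* KO (both genes lost) and *AGO1/2/3* KO (all 3 genes lost). Whether each line grew from a single edited clone is not given in the sources used here. Nor is it given whether the *AGO1/2/3* KO line was edited from another knockout line. If it was, levels in that other line would not be independent of the choice of genes. RNA was sequenced from 3 biological replicates per line, so the p-values below measure the spread between samples of a line and not between separately edited lines. Total counts were 29140175 to 32381721 in wild-type, 27709971 to 31465835 in *AGO1* KO, 40419152 to 45271146 in *AGO2* KO, 28294976 to 30701840 in *AGO1/2* KO and 29274887 to 40567975 in *AGO1/2/3* KO samples. *AGO1* RNA was at 27.0%, 28.0% and 24.8% of the wild-type mean in the 3 lines that lack the gene, and *AGO3* RNA was at 46.1% in *AGO1/2/3* KO cells. *AGO2* RNA was at 70.4% in *AGO2* KO, 83.4% in *AGO1/2* KO and 132% in *AGO1/2/3* KO cells, so RNA level does not check that label. The epithelial marker *EPCAM* had 6556 to 7369 counts in wild-type samples, whereas *VIL1* and *TSPAN8*, also on the list of colorectal epithelium markers, were at 10 counts or fewer in all 15 samples.

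Argonaute (AGO) proteins hold a microRNA (miRNA) and bring it to matching sites in messenger RNA, which is then translated less or degraded. A match to bases 2 to 8 of the miRNA, the seed, is the main determinant of a site. The miR-200 family is known for maintaining epithelial cells: its members target *ZEB1* and *ZEB2*, repressors that in turn bind the promoters of miR-200 genes and of other epithelial genes. Loss of this balance accompanies the epithelial-mesenchymal transition, in which cells give up junctions and polarity.

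The gene that hosts miR-200c and miR-141, *MIR200CHG*, was 1 of the 21. The mature sequences are shown because the pair belongs to the miR-200 family, whose other 3 members lie in a cluster on chromosome 1 and not in *MIR200CHG*. Sequences are from RefSeq on GRCh38.p14, written 5′ to 3′, and capitals mark the seed. The miR-200c-3p bases lie at chr12:6963742-6963764 and the miR-141-3p bases at chr12:6964155-6964176, both on the plus strand inside *MIR200CHG*.
hsa-miR-200c-3p: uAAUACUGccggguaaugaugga
hsa-miR-200b-3p: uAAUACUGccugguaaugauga
hsa-miR-429: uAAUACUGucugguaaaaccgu
hsa-miR-141-3p: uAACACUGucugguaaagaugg
hsa-miR-200a-3p: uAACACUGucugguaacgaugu
The first 3 share the seed AAUACUG and the last 2 share AACACUG. Counting from 1 at the 5′ end, miR-141-3p differs from miR-200c-3p by U4C, C9U, G11U and U17A over its 22 bases, and miR-200c-3p has 23 bases and so 1 more at the 3′ end. Mature miRNAs were not measured by these libraries, which were made from total RNA without selection for small RNA. Counts on the hairpin genes were 0 to 8 for *MIR200C* and 0 to 1 for *MIR141*, too few to compare lines. Mature miRNAs listed in RefSeq also lay inside *ENSG00000249631* (miR-12113), *FXYD3* (miR-6887) and *LRP1B* (miR-7157).

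ZEB proteins are known to bind the letters CACCTG, so the promoters of the 21 genes were searched for them on both strands. A window of 300 bases, from 250 before to 50 after the RefSeq start, was listed for 15 of the 21 genes. Those without a listed window included *CSTA*, *ENSG00000249631*, *LINC01405*, *LINC01714* and *LRP1B*. CACCTG stood in 9 of the 15 windows (60.0%), against 20.6% of all 27305 promoters listed and 18.6% of those of genes expressed in wild-type cells. The 5 stretches below show where it lies in the miRNA host gene, in 2 epithelial genes and in 2 signaling genes. Each is 30 bases of GRCh38.p14 in the direction of transcription, with CACCTG or its reverse complement CAGGTG in capitals.
MIR200CHG: ggcaggaggacaCACCTGtgcgcagggtgg
ABCA12: acgcatccagtgCAGGTGacatgttctcta
C1orf210: ccttgacccgccCACCTGtccaggttctgc
SYK: cgggctcctctaCACCTGccgccgcctggg
GRB14: cgccccggtgccCACCTGaggaggcagcgg
These stretches lie at chr12:6963155-6963184 (plus strand), chr2:215138631-215138660 (minus), chr1:43285601-43285630 (minus), chr9:90801603-90801632 (plus) and chr2:164621689-164621718 (minus). The first capital stands at -78 in *MIR200CHG*, -22 in *ABCA12*, -37 in *C1orf210*, 15 in *SYK* and -224 in *GRB14*, counted from the RefSeq start. The other windows with the letters belonged to *RGS16*, *LURAP1L*, *LNCAROD* and *PELI2*. AACCNGTT, the motif of grainyhead-like factors, stood in 1 window (*LURAP1L*), against 1.73% of all promoters. TGANTCA, the AP-1 motif, stood in 1 window (*C1orf210*), where it overlaps a second CAGGTG, against 7.76% of all promoters. The motifs were chosen with the counts known, and a match is a stretch of letters and not a measured binding site. The 15 windows held a median of 10 CpG dinucleotides, against 14 over all promoters and 26 over those of genes expressed in wild-type cells, and 8 of the 15 had 10 or more (53.3%, against 56.0% and 88.9%). The promoters set beside the 15 were not matched to them for the level of their genes in wild-type cells.

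**Figure D1:**
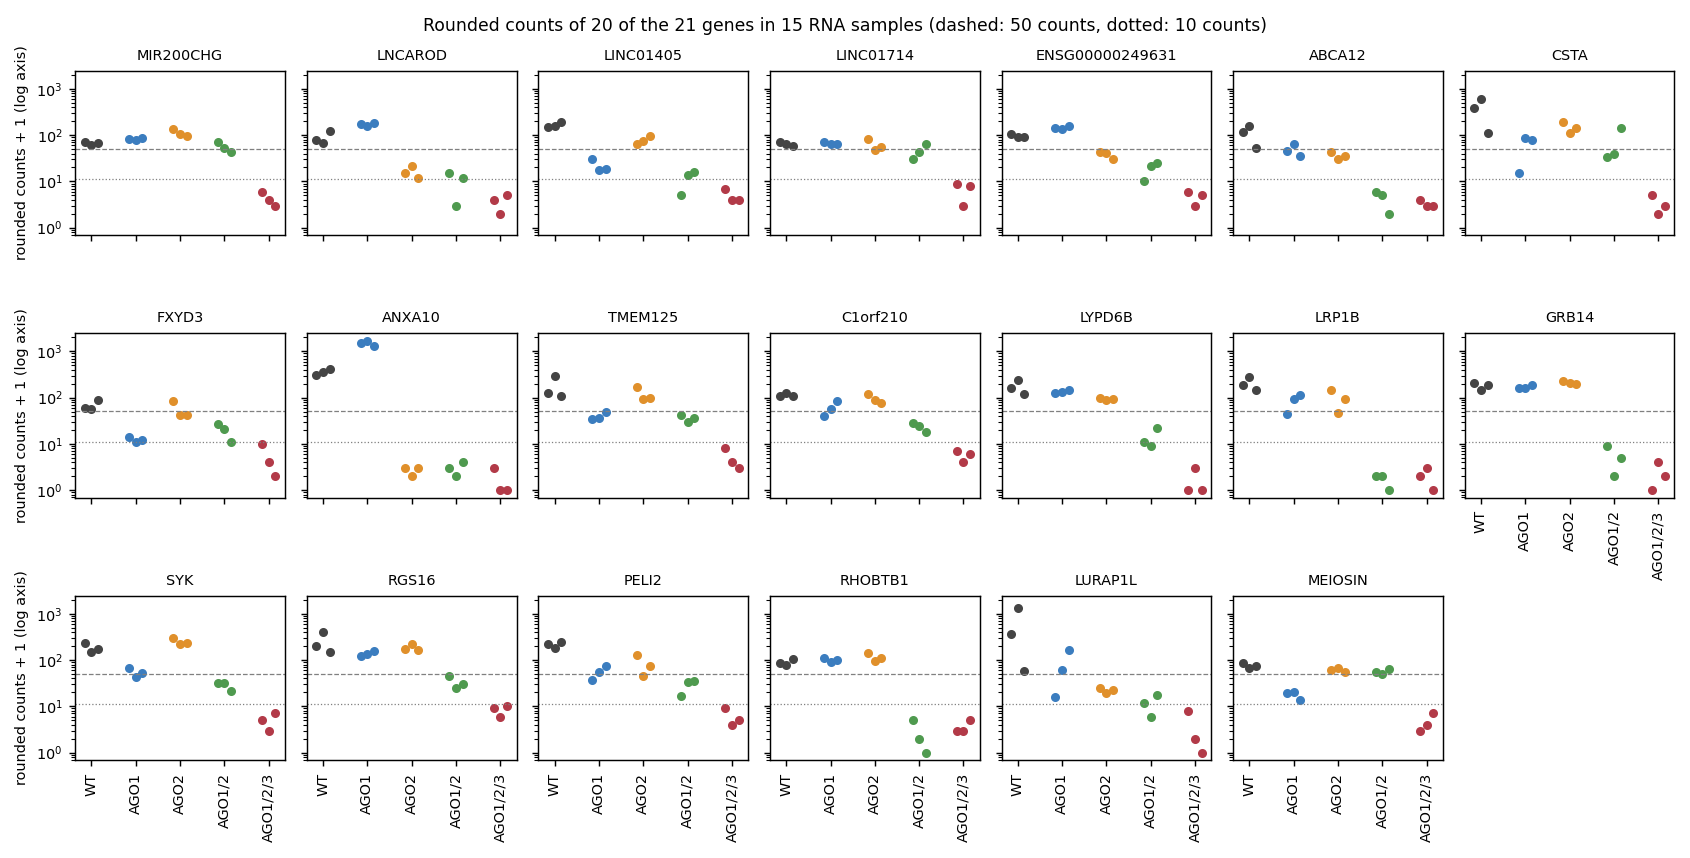
Rounded counts plus 1 on a log axis for 20 of the 21 genes in each of 15 RNA samples, grouped by line (lines are named by the genes they lack), with dashed and dotted lines at the limits of 50 and 10 counts. Counts are not scaled for depth, and the 3 AGO2 knockout samples are the deepest; every gene is above the dashed line in wild-type cells and under the dotted line in AGO1/2/3 knockout cells, and the genes differ in the line at which they fall.

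The 5 lncRNA genes made up 23.8% of the set, against 8.55% among the 14031 genes expressed in wild-type cells. *MIR200CHG* (ENSG00000257084, chr12:6963226-6964447, plus strand) had 69, 61 and 68 counts in wild-type samples. It had 80, 79 and 88 in *AGO1* KO, 134, 105 and 97 in *AGO2* KO and 71, 51 and 43 in *AGO1/2* KO samples. *AGO1/2/3* KO samples had 5, 3 and 2. Scaled for depth, the mean was 68.1 ± 3.61 normalized counts (SD, n = 3) in wild-type, 62.2 ± 11.9 in *AGO1/2* KO and 3.33 ± 1.0 in *AGO1/2/3* KO cells. The host gene of miR-200c and miR-141 was therefore still at 91.2% of the wild-type mean with AGO1 and AGO2 absent, and at 4.88% with AGO3 absent too. In RNA from whole cultures, fewer cells that express a gene and less RNA per cell cannot be told apart. *AGO1/2* KO cells were lower than *AGO1* KO cells by 0.56 on the log2 scale (SE 0.17, adjusted p = 0.0304, quasi-likelihood test of edgeR, Benjamini-Hochberg adjustment over the 22842 genes tested). The difference from *AGO2* KO cells was -0.49 (SE 0.17, adjusted p = 0.0467). Both calls are at the edge of the threshold, and DESeq2 gave adjusted p of 0.0535 and 0.0708. The first was lost on leaving out *AGO1* replicate 2 or 3 or *AGO1/2* replicate 2 or 3 (adjusted p = 0.0701 to 0.107), and the second without wild-type replicate 1 or 3, any *AGO2* KO sample, *AGO1/2* replicate 2 or 3 or any *AGO1/2/3* KO sample (adjusted p = 0.0583 to 0.181).

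*LNCAROD* (ENSG00000231131, chr10:52450874-52755509, minus strand), a lncRNA named as an activating regulator of the neighboring *DKK1*, had 77, 68 and 120 counts in wild-type samples. Counts were 176, 160 and 185 in *AGO1* KO, 14, 21 and 11 in *AGO2* KO and 14, 2 and 11 in *AGO1/2* KO samples. *AGO1* KO samples were all above, and *AGO2* KO and *AGO1/2* KO samples all under, the wild-type samples. The lncRNA *ENSG00000249631* (chr4:11625651-11823906, plus strand) had the same order of lines, with 104, 90 and 89 counts in wild-type samples. It had 142, 136 and 159 in *AGO1* KO, 43, 40 and 29 in *AGO2* KO and 9, 21 and 24 in *AGO1/2* KO samples. Against *AGO1* KO cells, *AGO1/2* KO cells were lower in *LNCAROD* (log2 difference of -4.22, SE 0.36, adjusted p = 1.01e-06) and in *ENSG00000249631* (-2.97, SE 0.26, adjusted p = 1.37e-06). Against *AGO2* KO cells the log2 differences were -0.22 (SE 0.45, adjusted p = 0.77) and -0.49 (SE 0.29, adjusted p = 0.235), and neither passed. The *LNCAROD* value turned to 0.06 without *AGO2* replicate 2 and to 0.26 without *AGO1/2* replicate 2.

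*LINC01405* (ENSG00000185847, chr12:110934590-110959093) was lower than in wild type in each single knockout line already. Its counts were 148, 158 and 189 in wild-type, 29, 17 and 18 in *AGO1* KO, 62, 73 and 96 in *AGO2* KO and 4, 13 and 15 in *AGO1/2* KO samples. *LINC01714* (ENSG00000227634, chr1:8201518-8215210) did not show this course: 70, 65 and 58 counts in wild-type samples stood beside 71, 64 and 63 in *AGO1* KO, 80, 46 and 54 in *AGO2* KO and 30, 42 and 64 in *AGO1/2* KO samples. Only the *AGO1/2/3* KO samples, with 8, 2 and 7, stood apart from the others. *AGO1/2* KO cells had less *LINC01405* than *AGO2* KO cells (log2 difference of -2.30, SE 0.34, adjusted p = 0.000222), and the difference from *AGO1* KO cells did not pass (-0.94, SE 0.39, adjusted p = 0.107). *LINC01714* passed in neither comparison (-0.49, SE 0.28, adjusted p = 0.267, and 0.16, SE 0.29, adjusted p = 0.73), though the first passed without *AGO1/2* replicate 3 (-0.90, adjusted p = 0.0401) and the second turned to -0.25 without it and to -0.01 without *AGO2* replicate 2.

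*ANXA10* had the widest range of line means of the 21 genes. It encodes annexin A10, a member of the annexin family known as a marker of gastric and serrated colorectal epithelium, and lies at chr4:168092537-168187736 (ENSG00000109511, plus strand). Wild-type samples had 303, 362 and 409 counts and *AGO1* KO samples 1501, 1711 and 1313. *AGO2* KO samples had 2, 1 and 2, *AGO1/2* KO samples 2, 1 and 3, and *AGO1/2/3* KO samples 2, 0 and 0. The gene was thus 4.59 times the wild-type mean without AGO1 and at 10 counts or fewer in every sample without AGO2. On summed counts scaled for depth, *AGO2* KO cells were at 0.353% of wild type (95% exact interval 0.114 to 0.826%) and *AGO1/2* KO cells at 0.617% (0.226 to 1.35%). Such intervals cover counting error only. *AGO1/2* KO cells were lower than *AGO1* KO cells by a log2 difference of -9.46 (SE 0.31, adjusted p = 5.37e-11), and the 6 counts in *AGO1/2* KO against 5 in *AGO2* KO samples did not separate these lines (adjusted p = 0.53).

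Other members act at the epithelial surface or barrier. *ABCA12* (ENSG00000144452, chr2:214931542-215138626), a lipid transporter that keratinocytes need for the skin barrier, had 114, 153 and 53 counts in wild-type samples. Counts were 44, 62 and 34 in *AGO1* KO, 42, 29 and 34 in *AGO2* KO, 5, 4 and 1 in *AGO1/2* KO and 3, 2 and 2 in *AGO1/2/3* KO samples. *AGO1/2* KO cells fell below both single knockout lines (log2 differences of -3.75, SE 0.54, adjusted p = 0.000139, and -2.81, SE 0.57, adjusted p = 0.00241). *SNHG31*, on the opposite strand over *ABCA12*, had 154 to 183 counts in wild-type and 134 to 174 in *AGO1/2* KO samples. Whether counting used strand is not given in the sources used here, so reads of overlapping genes on opposite strands may not be told apart.

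*CSTA* (ENSG00000121552, chr3:122325248-122341969), the cysteine protease inhibitor cystatin A of cornified epithelium, varied widely among replicates. It had 385, 613 and 113 counts in wild-type, 14, 87 and 78 in *AGO1* KO, 195, 112 and 140 in *AGO2* KO and 33, 38 and 139 in *AGO1/2* KO samples. The *AGO1/2* KO samples overlapped those of both single knockout lines and of wild type, and only *AGO1/2/3* KO samples, with 4, 1 and 2, lay under all others. Against *AGO1* KO and *AGO2* KO cells the log2 differences of *AGO1/2* KO cells were 0.27 (SE 0.70, adjusted p = 0.847) and -0.51 (SE 0.66, adjusted p = 0.621), and the first turned to -0.23 without *AGO1* replicate 1 and to -0.80 without *AGO1/2* replicate 3. *FXYD3* (ENSG00000089356, chr19:35115823-35124324), a regulator of the sodium pump in epithelia, had 60, 55 and 87 counts in wild-type and 13, 10 and 11 in *AGO1* KO samples. It had 82, 41 and 42 in *AGO2* KO, 26, 20 and 10 in *AGO1/2* KO and 9, 3 and 1 in *AGO1/2/3* KO samples. *AGO1/2* KO cells had less *FXYD3* than *AGO2* KO cells (log2 difference of -1.01, SE 0.35, adjusted p = 0.0465), a call lost on leaving out wild-type replicate 1, *AGO1* replicate 1 or 2, *AGO2* replicate 1 or 3, *AGO1/2* replicate 2 or 3 or *AGO1/2/3* replicate 2 (adjusted p = 0.0537 to 0.217). The difference from *AGO1* KO cells did not pass (0.74, SE 0.42, adjusted p = 0.259).

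*TMEM125* (ENSG00000179178, chr1:43269983-43274002, plus strand) and *C1orf210* (ENSG00000253313, chr1:43281877-43285617, minus strand), 2 membrane protein genes, lie 7874 bases apart with their ends toward each other. *TMEM125* had 110 to 296 counts in wild-type, 33, 35 and 48 in *AGO1* KO, 172, 94 and 99 in *AGO2* KO and 41, 29 and 35 in *AGO1/2* KO samples. *C1orf210* had 105, 126 and 107 in wild-type, 39, 57 and 83 in *AGO1* KO, 121, 87 and 75 in *AGO2* KO and 27, 23 and 17 in *AGO1/2* KO samples. Both were at 21.7% of the wild-type mean in *AGO1/2* KO cells, but *TMEM125* was already at 23.5% in *AGO1* KO cells, where *C1orf210* was at 57.6%. *C1orf210* was lower in *AGO1/2* KO than in *AGO1* KO cells (log2 difference of -1.39, SE 0.28, adjusted p = 0.00215) and in *AGO2* KO cells (-1.53, SE 0.27, adjusted p = 0.000961). For *TMEM125* the difference from *AGO2* KO cells passed (-1.24, SE 0.37, adjusted p = 0.0244) and that from *AGO1* KO cells did not (-0.11, SE 0.40, adjusted p = 0.889), turning to 0.04 without *AGO1* replicate 3. The first was lost on leaving out *AGO2* replicate 1 or *AGO1/2* replicate 2 (adjusted p = 0.101 for each) or *AGO1/2* replicate 3 (0.0543). *EBNA1BP2*, which overlaps *TMEM125* on the opposite strand, had 2044 to 2279 counts in wild-type samples and 1496 to 1918 in *AGO1/2/3* KO samples.

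Other members belong to families of receptors or receptor-like proteins at the plasma membrane. *LRP1B* (ENSG00000168702, chr2:140231423-142131016), a giant member of the low-density lipoprotein receptor family, had 185, 278 and 146 counts in wild-type samples. It had 43, 93 and 113 in *AGO1* KO, 145, 46 and 94 in *AGO2* KO, 1, 1 and 0 in *AGO1/2* KO and 1, 2 and 0 in *AGO1/2/3* KO samples. The 2 counts over the *AGO1/2* KO samples were 0.823% of the level in *AGO1* KO (95% exact interval 0.0991 to 3.0%) and 1.02% of that in *AGO2* KO cells (0.123 to 3.73%), and both differences passed (adjusted p = 3.8e-05 and 8.53e-05).

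*LYPD6B* (ENSG00000150556, chr2:149038107-149215262), a protein of the Ly6 and uPAR domain family, had 157, 240 and 118 counts in wild-type, 122, 132 and 148 in *AGO1* KO, 96, 90 and 91 in *AGO2* KO and 10, 8 and 21 in *AGO1/2* KO samples. *AGO1/2/3* KO samples had 0, 2 and 0, which is 0.385% of wild type (95% exact interval 0.0465 to 1.4%). *AGO1/2* KO cells were lower than *AGO1* KO (log2 difference of -3.32, SE 0.37, adjusted p = 1.56e-05) and *AGO2* KO cells (-2.27, SE 0.38, adjusted p = 0.00065). Without *AGO1/2* replicate 3 these differences were -3.92 and -2.87.

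Of the 5 genes that act in signaling inside the cell, *GRB14* and *RHOBTB1* were at 10 counts or fewer in every *AGO1/2* KO sample but in no sample of the single knockout lines. *GRB14* (ENSG00000115290, chr2:164492417-164621482) encodes an adaptor that binds and restrains the insulin receptor. Its counts were 208, 143 and 182 in wild-type, 162, 163 and 185 in *AGO1* KO, 229, 206 and 198 in *AGO2* KO, 8, 1 and 4 in *AGO1/2* KO and 0, 3 and 1 in *AGO1/2/3* KO samples. *RHOBTB1* (ENSG00000072422, chr10:60869438-61001440), an atypical small GTPase, had 87, 78 and 107 counts in wild-type, 108, 91 and 99 in *AGO1* KO, 144, 93 and 111 in *AGO2* KO, 4, 1 and 0 in *AGO1/2* KO and 2, 2 and 4 in *AGO1/2/3* KO samples. The mean of *GRB14* was 104% and 90.0% of wild type in the single knockout lines and 2.64% in *AGO1/2* KO cells. For *RHOBTB1* these values were 118%, 97.0% and 1.93%. *GRB14* differed between *AGO1/2* KO and *AGO1* KO cells by -5.23 on the log2 scale (SE 0.36, adjusted p = 1.17e-07) and between *AGO1/2* KO and *AGO2* KO cells by -5.03 (SE 0.36, adjusted p = 2.46e-07). The *RHOBTB1* differences were -5.78 (SE 0.40, adjusted p = 1.32e-07) and -5.49 (SE 0.40, adjusted p = 3.24e-07). Without *AGO1/2* replicate 1, which has most of the remaining counts, they were -5.97 and -5.74 for *GRB14* and -7.29 and -6.98 for *RHOBTB1*.

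The other signaling genes fell in smaller steps. *SYK* (ENSG00000165025, chr9:90801787-90898549), a tyrosine kinase known from immune receptors and also made by epithelial cells, had 231, 152 and 173 counts in wild-type and 295, 218 and 237 in *AGO2* KO samples. It had 68, 41 and 51 in *AGO1* KO, 31, 31 and 20 in *AGO1/2* KO and 4, 2 and 6 in *AGO1/2/3* KO samples, so that the level was at 30.7%, 16.2% and 2.17% of the wild-type mean in these lines. The difference between *AGO1/2* KO and *AGO2* KO cells was -2.65 (log2, SE 0.23, adjusted p = 1.41e-06). That from *AGO1* KO cells was -0.92 (SE 0.24, adjusted p = 0.0137), with adjusted p of 0.0653 without *AGO1* replicate 1 and 0.0571 without *AGO1/2* replicate 3. Of 11 markers of blood and immune cells listed, 6, among them *CD3E*, *MS4A1* and *SPI1*, were at 10 counts or fewer in all 15 samples. The summed level of the list was 120.6 to 253.2 normalized counts in wild-type, 127.3 to 193.7 in *AGO1* KO, 144.9 to 158.1 in *AGO2* KO, 347.6 to 413.2 in *AGO1/2* KO and 94.2 to 100.8 in *AGO1/2/3* KO samples. The sum was highest in the *AGO1/2* KO samples, where most of it was *CD68*, and its genes did not move alike. Between *AGO1/2* KO and wild-type cells *CD68* was higher (log2 difference of 1.31, SE 0.36, adjusted p = 0.0222, edgeR). *LCP1* was lower (-2.78, SE 0.48, adjusted p = 0.000989), as *SYK* was. *PTPRC* (0.29, SE 0.22, adjusted p = 0.42) and *HBA1* (1.43, SE 0.62, adjusted p = 0.135) did not pass. Whether blood or immune cells added to the *SYK* counts was not tested.

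*RGS16* (ENSG00000143333, chr1:182598623-182604389), which speeds the return of G proteins to their inactive state, had 204, 412 and 148 counts in wild-type, a mean of 154.9 ± 24.3 normalized counts (SD, n = 3) in *AGO1* KO, 172, 217 and 168 counts in *AGO2* KO and 44, 24 and 29 in *AGO1/2* KO samples. *AGO1/2* KO samples lay under all single knockout samples (log2 differences of -2.07, SE 0.35, adjusted p = 0.000542, and -1.98, SE 0.34, adjusted p = 0.000827). *PELI2* (ENSG00000139946, chr14:56117814-56301524), a ubiquitin ligase of interleukin-1 and Toll-like receptor signaling, had 222, 177 and 246 counts in wild-type, 36, 53 and 74 in *AGO1* KO, 128, 45 and 72 in *AGO2* KO and 16, 33 and 34 in *AGO1/2* KO samples. The differences of -0.93 (SE 0.39, adjusted p = 0.114) and -0.99 (SE 0.38, adjusted p = 0.0698) between *AGO1/2* KO and the single knockout lines did not pass. The second passed without *AGO2* replicate 2 (-1.29, adjusted p = 0.0233).

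*LURAP1L* (ENSG00000153714, chr9:12775020-12823060), which encodes a leucine-rich adaptor-like protein, was the least even gene within wild-type cells. Its 364, 1331 and 58 counts spanned 24.3-fold after scaling for depth, against a median of 1.43-fold for the 21 genes and 1.29-fold for the 14031. It had 15, 60 and 163 counts in *AGO1* KO, 24, 18 and 22 in *AGO2* KO and 11, 5 and 17 in *AGO1/2* KO samples. The differences between *AGO1/2* KO and single knockout cells were -2.81 (SE 1.12, adjusted p = 0.0956) and -0.40 (SE 1.32, adjusted p = 0.861). The first passed without *AGO1* replicate 1 (-3.32, adjusted p = 0.0456) and without wild-type replicate 2 or 3 (-2.83 each, adjusted p = 0.0286 and 0.0238). *LURAP1L-AS1*, on the opposite strand over it, had 7 to 43 counts in wild-type and 0 to 2 in *AGO1/2/3* KO samples. Wild-type replicate 2 was the highest of the wild-type samples for 9 of the 21 genes and replicate 3 the lowest for 10. The same shares over the 14031 genes were not counted, so these counts do not show a replicate difference particular to the set.

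*MEIOSIN* (ENSG00000237452, chr19:45733439-45764541), known for starting meiosis in germ cells, had 84, 67 and 74 counts in wild-type samples. It was low in *AGO1* KO samples, with 18, 19 and 13, and had 61, 67 and 54 in *AGO2* KO and 54, 49 and 63 in *AGO1/2* KO samples. It was the only gene of the 21 called higher in *AGO1/2* KO than in *AGO1* KO cells (log2 difference of 1.76, SE 0.25, adjusted p = 0.000131), and it did not differ past the threshold from *AGO2* KO cells (0.42, SE 0.22, adjusted p = 0.179). *AGO1/2/3* KO samples had 2, 3 and 6.

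**Figure D2:**
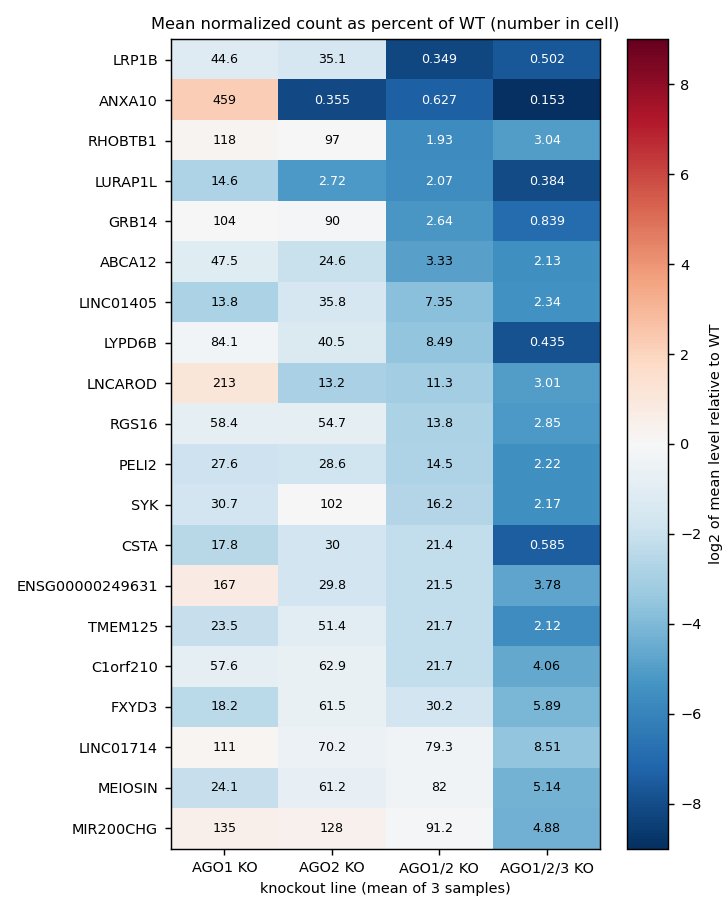
Mean normalized count of 20 of the 21 genes in each knockout line as a percent of the wild-type mean (number in each cell; n = 3 per line), with color giving log2 of that ratio and genes ordered by their level in AGO1/2 knockout cells. The AGO1 and AGO2 columns mix values above and under 100, the AGO1/2 column runs from 0.349 to 91.2, and the AGO1/2/3 column, which the rule fixed, runs from 0.153 to 8.51.

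The median gene was at 57.6% of the wild-type mean in *AGO1* KO, 51.4% in *AGO2* KO, 13.8% in *AGO1/2* KO and 2.34% in *AGO1/2/3* KO cells. Means were under the wild-type mean for 14 genes in *AGO1* KO, 18 in *AGO2* KO and 21 in *AGO1/2* KO cells. These 3 comparisons share the wild-type samples that the rule required to be high, so their calls are given as a description. In *AGO1* KO cells 8 genes were called lower (5.5% of all genes tested were) and 3 higher (3.17%), and samples did not overlap for 9 genes on the low side (12.9%) and 5 on the high side (10.2%). In *AGO2* KO cells 10 were called lower (10.8%) and 0 higher (8.55%), and samples did not overlap for 11 genes on the low side (18.6%) and 1, *MIR200CHG*, on the high side (18.5%). In *AGO1/2* KO cells 18 were called lower (8.35%) and 0 higher (8.37%), samples did not overlap for 17 on the low side (14.3%) and 0 on the high side (15.5%), and *MIR200CHG*, *LINC01714* and *MEIOSIN* were the 3 not called. The rule fixed the outcome for all 21 in *AGO1/2/3* KO cells, so calls are not counted there. Of the 21, 2 were higher at an unadjusted p under 0.05 in *AGO2* KO cells and 0 in *AGO1/2* KO cells, and DESeq2 called 0 higher in both. The 3 genes called higher in *AGO1* KO cells, *ANXA10*, *LNCAROD* and *ENSG00000249631*, were each called lower in *AGO2* KO cells. The count of 3 fell to 1 without wild-type replicate 1, wild-type replicate 2 or *AGO1* replicate 2. The median log2 difference from wild type over the 21 genes was -0.80, -0.96 and -2.85 in *AGO1* KO, *AGO2* KO and *AGO1/2* KO cells, against -0.01, -0.02 and 0.01 over all genes tested.

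By the counts alone, no gene of the 21 was at 10 or fewer in every *AGO1* KO sample, 1 was in *AGO2* KO samples (*ANXA10*) and 6 were in *AGO1/2* KO samples (among them *ABCA12*, *ANXA10*, *GRB14*, *LRP1B* and *RHOBTB1*). Among the 14031 genes expressed in wild-type cells the shares were 0.0143%, 0.0428% and 0.0855%, or 2, 6 and 12 genes. At a limit of 20 counts, 2, 1 and 9 of the 21 were off in *AGO1* KO, *AGO2* KO and *AGO1/2* KO cells. The share of the 14031 genes at that limit was not counted. These counts are not scaled for depth, so a limit is stricter in the *AGO2* KO samples, which are the deepest. No gene of the set was on chromosome 8, and 2 genes on chromosome Y that met both limits were left out.

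The comparisons between *AGO1/2* KO and single knockout cells compare no sample that chose the genes. All 15 samples, those that chose the genes included, entered the estimate of spread behind the calls. In *AGO1/2* KO cells 13 genes were lower than in *AGO1* KO cells (7.95% of all genes tested were) and 1 was higher (11.5%). Against *AGO2* KO cells 13 were lower (11.1%) and 0 higher (12.8%; 0 also at an unadjusted p under 0.05 and by DESeq2). A total of 10 genes were lower than in both single knockout lines, among them *ABCA12*, *C1orf210*, *GRB14*, *LRP1B*, *LYPD6B*, *MIR200CHG*, *RGS16*, *RHOBTB1* and *SYK*, and 16 were lower than in at least 1 of them. Samples did not overlap for 14 genes on the lower side against *AGO1* KO (14.9% of all genes) and for 13 against *AGO2* KO cells (19.9%), and on the higher side for 1 gene in each (19.3% and 22.6%). The 2 comparisons share the *AGO1/2* KO samples. A fit to only the 6 samples of each comparison called 13 genes lower than in *AGO1* KO cells and 11 lower than in *AGO2* KO cells. The median log2 difference over the 21 genes was -2.07 and -1.24, against 0.01 and 0.04 over all genes tested. The column headers of the *AGO2* KO files carry the word quasi and those of the other lines do not. Whether this marks another mode of quantification is not given in the sources used here, and if it does, mode and genotype cannot be told apart in comparisons with *AGO2* KO cells.

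**Figure D3:**
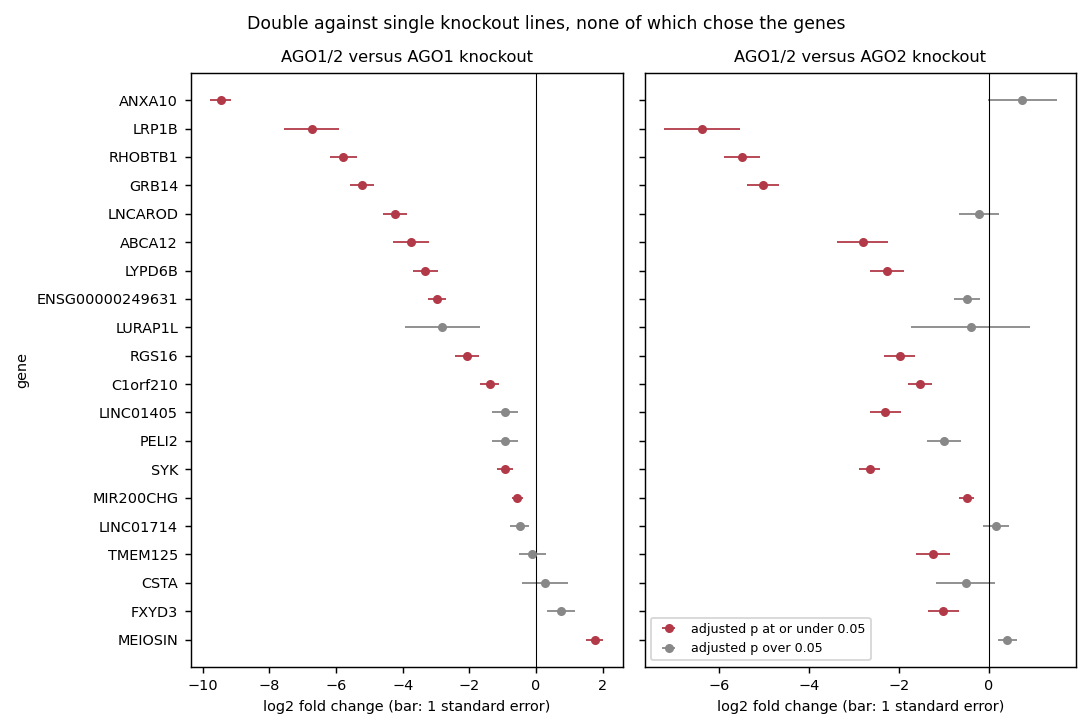
Log2 fold change of 20 of the 21 genes between AGO1/2 and AGO1 knockout cells (left) and between AGO1/2 and AGO2 knockout cells (right), from edgeR; bars are 1 standard error and red marks adjusted p at or under 0.05 (n = 3 samples per line). In each panel 12 of the 20 genes pass to the left of 0, from -9.46 for ANXA10 on the left panel to -0.49 for MIR200CHG on the right, and only MEIOSIN passes to the right.

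Some regulators of the miR-200 and ZEB balance and of epithelial genes, picked after their values were seen, are given from the same samples. *ZEB1* had 252, 301 and 300 counts in wild-type, 430, 434 and 464 in *AGO1* KO, 332, 422 and 421 in *AGO2* KO, 720, 815 and 767 in *AGO1/2* KO and 2132, 1669 and 1944 in *AGO1/2/3* KO samples. The *AGO1/2* KO samples lay above all single knockout samples (log2 differences of 0.83, SE 0.14, adjusted p = 0.000526, and 1.51, SE 0.14, adjusted p = 3.29e-06), and *AGO1/2/3* KO cells were above wild type (2.75, SE 0.15, adjusted p = 2.95e-09). *ZEB2* had 50 to 71 counts in wild-type and 78 to 90 in *AGO1/2/3* KO samples, and that difference did not pass (0.42, SE 0.18, adjusted p = 0.075), though it did without *AGO1/2/3* replicate 1 (0.55, adjusted p = 0.0319). *MIR200CHG* was at 91.2% of wild type in *AGO1/2* KO cells. Mature miR-200 was not measured, and a link between *ZEB1* and the level of the host gene was not tested.

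*ESRP1*, a splicing factor of epithelial cells, had 5786 to 12018 counts in wild-type, 1642 to 2640 in *AGO1/2* KO and 787 to 1208 in *AGO1/2/3* KO samples (log2 difference of -3.17 between the last and wild type, SE 0.27, adjusted p = 3.46e-07). The epithelial transcription factor *GRHL2* had 858 to 1169 counts in wild-type samples, 53 to 64 in *AGO1/2* KO and 29 to 44 in *AGO1/2/3* KO samples (log2 difference of -4.82, SE 0.18, adjusted p = 1.93e-10). *GRHL2* was lower in *AGO1/2* KO than in *AGO1* KO (-2.85, SE 0.17, adjusted p = 3.21e-08) and *AGO2* KO cells (-3.84, SE 0.17, adjusted p = 2.5e-09). Both genes lie on chromosome 8, whose 796 tested genes had a median log2 difference of -0.21 between *AGO1/2* KO and wild-type cells and of -0.25 between *AGO1/2/3* KO and wild-type cells. The part of that shift in their change was not tested. Other regulators did not all move alike between *AGO1/2/3* KO and wild-type cells by edgeR. *OVOL2* was higher (log2 difference of 1.83, SE 0.25, adjusted p = 3.49e-05) and *SNAI1* lower (-1.11, SE 0.21, adjusted p = 0.000673). *ESRP2* did not pass (-0.08, SE 0.16, adjusted p = 0.741).

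**Figure D4:**
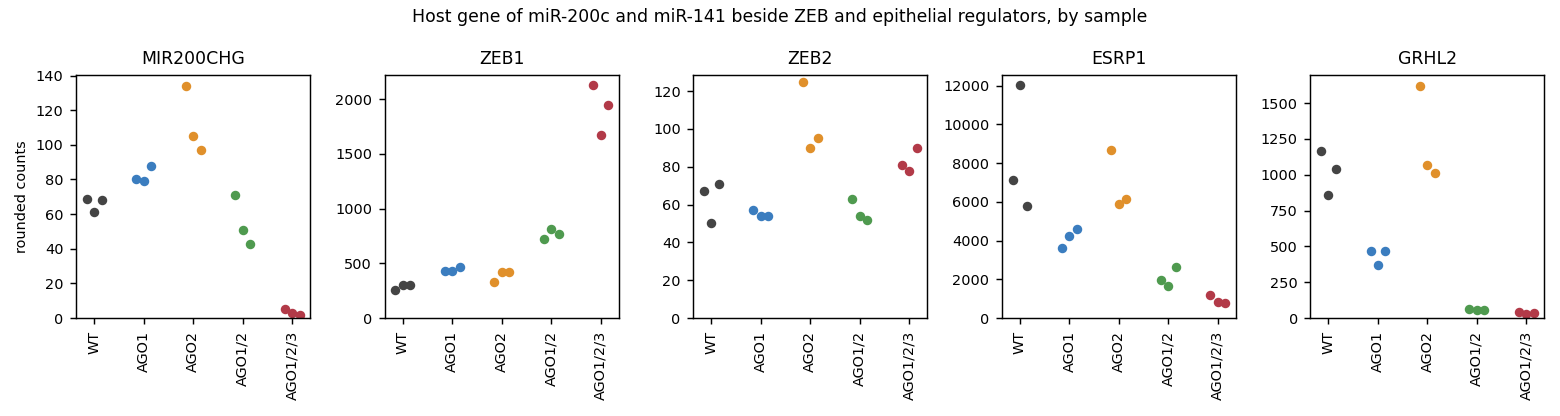
Rounded counts of MIR200CHG, ZEB1, ZEB2, ESRP1 and GRHL2 by sample and line on linear axes that start at 0; each point is a sample (n = 3 per line), not scaled for depth. MIR200CHG stays at 43 to 71 in AGO1/2 knockout samples and is at 2 to 5 in AGO1/2/3 knockout samples, ZEB1 rises from 252 to 301 in wild-type to 1669 to 2132 in AGO1/2/3 knockout samples, and GRHL2 is already at 53 to 64 in AGO1/2 knockout samples.

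Lists of epithelial genes were counted to set the 21 beside their surroundings; none of the next 3 lists holds a member. Of 41 tested genes of epithelial junctions and polarity, 20 were lower and 8 higher in *AGO1/2/3* KO than in wild-type cells, with a median log2 difference of -0.35, against 19.8% lower, 20.3% higher and a median of -0.01 over all genes. Examples that fell are *CDH1*, the E-cadherin of adherens junctions (-3.51, SE 0.26, adjusted p = 7.51e-08), *EPCAM* (-1.74, SE 0.10, adjusted p = 6.02e-09) and *RAB25*, a small GTPase of apical recycling (-6.36, SE 0.21, adjusted p = 3.48e-11). Among the 8 called higher are *DSC3* (1.44, SE 0.11, adjusted p = 8.38e-08), *PALS1* (1.43, SE 0.14, adjusted p = 1.12e-06) and *CLDN2* (2.23, SE 0.31, adjusted p = 4.36e-05). *RAB25* came close to the rule, with 1043 to 1193 counts in wild-type samples and 22, 10 and 9 in *AGO1/2/3* KO samples, and was named after its values were seen. Of 23 tested epithelial and intestinal transcription factors, 12 were lower and 3 higher (median -0.62). Of 7 tested transcription factors of the epithelial-mesenchymal transition, 2 were lower and 2 higher (median 0.42). Between *AGO1/2* and *AGO1* KO cells the junction list had 8 lower and 11 higher (median 0.07), whereas the epithelial transcription factors had 9 lower and 2 higher (median -0.38), against 7.95% lower and 11.5% higher over all genes. Against *AGO2* KO cells the counts were 15 lower and 3 higher (median -0.26) for junctions and 11 lower and 3 higher (median -0.40) for the transcription factors, against 11.1% and 12.8%.

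*ANXA10* is the only member on the list of 23 tested annexins and S100 proteins, of which 7 were lower and 11 higher in *AGO1/2/3* KO than in wild-type cells (median 0.28), against 19.8% lower and 20.3% higher over all genes tested. Between *AGO1/2* and *AGO1* KO cells 1 was lower and 13 were higher (median 0.50), against 7.95% and 11.5%. *S100A14*, an S100 protein of epithelia, had 2149 to 4560 counts in wild-type samples and 14, 10 and 9 in *AGO1/2/3* KO samples, above the limit of 10 in 1 sample (log2 difference of -8.21, SE 0.64, adjusted p = 1.27e-07).

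The 21 genes lie on 9 chromosomes by GENCODE v44 (hg38), with 4 each on chromosomes 1 and 2, 2 each on 3, 4, 9, 10, 12 and 19, and 1 on 14. *TMEM125* and *C1orf210* apart, the nearest members are *LRP1B* and *LYPD6B* (6.91 Mb) and *LNCAROD* and *RHOBTB1* (8.11 Mb). Within 500 kb of a member lay 251 other tested genes. In *AGO1/2/3* KO cells 73 of these were lower than in wild type (29.1%, against 19.8% of all genes tested), with a median log2 difference of -0.07. In *AGO1/2* KO cells 26 were lower than in *AGO1* KO cells (10.4%, against 7.95%) and 25 lower than in *AGO2* KO cells (9.96%, against 11.1%).

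Genes beside *RHOBTB1* and *GRB14* had the same course as these members and were named after their values were seen. *ANK3*, an ankyrin that anchors membrane proteins to the cytoskeleton, lies 136 kb downstream of *RHOBTB1* on chromosome 10. It had 873, 655 and 807 counts in wild-type, 807, 795 and 886 in *AGO1* KO, 1278, 789 and 861 in *AGO2* KO, 35, 31 and 21 in *AGO1/2* KO and 27, 44 and 42 in *AGO1/2/3* KO samples. *COBLL1*, an actin-binding protein of the cordon-bleu family, lies 32.1 kb upstream of *GRB14* on chromosome 2, with 353, 334 and 280 counts in wild-type and 20, 9 and 15 in *AGO1/2* KO samples. Both were lower in *AGO1/2* KO than in *AGO1* KO cells, *ANK3* by a log2 difference of -4.81 (SE 0.26, adjusted p = 9.64e-09) and *COBLL1* by -4.66 (SE 0.22, adjusted p = 2.26e-09). *CDK1*, the mitotic kinase 74.6 kb from *RHOBTB1* and so between it and *ANK3*, was not called lower in *AGO1/2/3* KO cells (0.40, SE 0.29, adjusted p = 0.295).

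Around other members the neighbors were mixed. The largest decreases in *AGO1/2/3* KO cells among the 251 neighbors, named after their values were seen, were those of *ENSG00000229305*, at -8.75 kb (upstream) from *LINC01714* (log2 difference of -5.14, SE 0.66, adjusted p = 1.69e-05), and *ENSG00000271969*, 0.502 kb downstream of *MIR200CHG* (-4.83, SE 1.03, adjusted p = 0.00201). All 3 tested genes within 500 kb of *LNCAROD* were lower in *AGO1/2/3* KO than in wild-type cells, among them *DKK1*, an inhibitor of Wnt signaling (-1.97, SE 0.42, adjusted p = 0.00158). In *AGO2* KO samples, where *LNCAROD* had 14, 21 and 11 counts, *DKK1* had 1715, 4484 and 2119, overlapping the 1117 to 4540 of wild-type samples. These counts are not scaled for depth, and a link between *LNCAROD* and *DKK1* was not tested. *HS3ST1*, a heparan sulfate sulfotransferase beside *ENSG00000249631*, was lower in *AGO1/2/3* KO cells (-3.15, SE 0.21, adjusted p = 2.35e-08). *FN1*, the matrix protein fibronectin upstream of *ABCA12*, was higher (2.59, SE 0.16, adjusted p = 9.74e-09). *LRP1B*, which spans 1900 kb, had no tested neighbor within 500 kb.

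**Figure D5:**
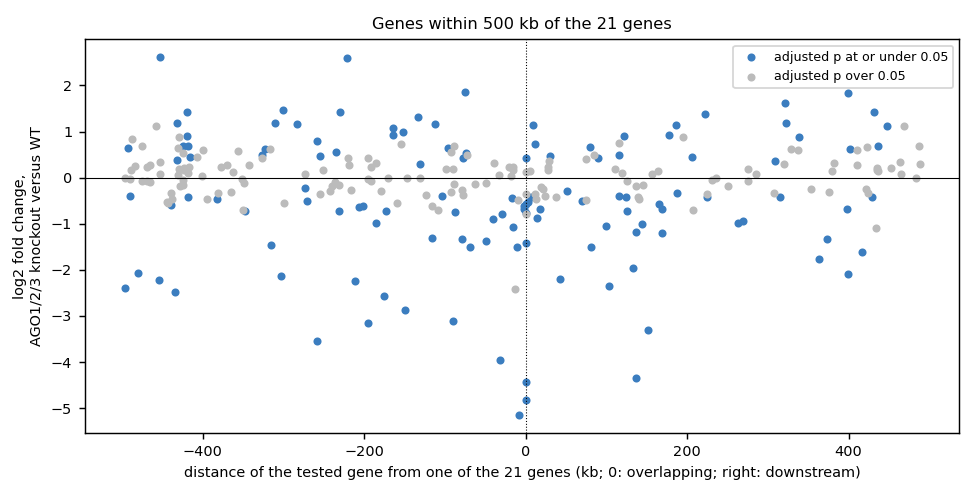
Log2 fold change between AGO1/2/3 knockout and wild-type cells of each of 251 tested genes within 500 kb of a member, against its distance from that member in kb (0 where they overlap, positive downstream); genes near 2 members are drawn for each. Blue points have adjusted p at or under 0.05 by edgeR; points lie on both sides of 0 at every distance, with ANK3 (-4.34) at 136 kb and COBLL1 (-3.95) at -32.1 kb among the 5 lowest.

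The limits of 50 and 10 counts set the number of genes. Members with a wild-type sample just above the limit included *ABCA12* (53) and *FXYD3* (55), and those with the highest *AGO1/2/3* KO sample were *FXYD3* (9), *RGS16* (9) and *LINC01714* (8). Just outside on the wild-type side were *SNORA70* (55, 97 and 48 counts), *PODXL2* (45, 58 and 54) and *ZNF550* (69, 44 and 76). On the knockout side *MUC4* (11, 5 and 7 counts), *PRSS22* (12, 11 and 6) and *IL32* (12, 8 and 7) were just outside. With 25 counts in wild type in place of 50 the set would hold 48 genes, with 100 it would hold 11, and with 20 or 5 counts as the upper limit in *AGO1/2/3* KO samples 54 or 11.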

How the data were processed

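RNA-seq of wild-type HCT116 cells and 4 *AGO* knockout lines (3 samples each, 15 in all) was used. Per the labels and the methods, total RNA was depleted of ribosomal RNA, made into stranded libraries and sequenced as paired ends. The authors quantified reads on hg38, and the expected counts deposited for each gene carry no scaling for depth; between 30.8% and 33.8% of a sample's values are not whole. The submitters' processing notes list STAR 2.5.3a, Salmon 0.11.0 and DESeq2; the methods name other versions of the first pair. The eCLIP samples were not analysed here.

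Counts were rounded. In R 4.3.3, edgeR 4.0.16 fitted all samples in a single model with a mean per line (TMM scaling, filterByExpr, quasi-likelihood test), p-values were adjusted over the 22842 genes tested by the Benjamini-Hochberg method, and genes were called at an adjusted p of 0.05 or less. All 21 members passed the filter. Normalized counts are counts divided by TMM-scaled library size; percentages of wild type use line means. Where few counts remained, ratios carry 95% exact binomial intervals. GENCODE v44 gave positions and symbols (57167 of 57875 genes matched); sequences come from RefSeq tables. Python 3.11.15 made the tables. The fit was tested on simulated data. The main fit did not treat same-numbered samples as paired. Their deviations from the line means correlated from -0.394 to 0.486. Samples with different numbers were not compared in this way, so these values cannot decide whether the numbers pair samples.

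The members and gene lists were chosen with earlier results of these data known. All members but 1, which is not reported here by name, are described, with the 3 nearest each limit, the 3 just outside and the *AGO* genes; other named genes were picked after their values were seen. Alternatives were DESeq2 1.42.0, other scaling, no filter on low counts, a stricter filter, a 2-fold threshold, only the samples compared, a replicate block, other count limits and leaving out each sample.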

Additional observations from a re-analysis of the deposited data

How the results depend on the processing

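The number of genes depends on the limits: 48 with 25 counts in wild type, 11 with 100, 11 with 5 counts and 54 with 20 counts in *AGO1/2/3* KO samples, and 21 to 30 on leaving out 1 sample. At 20 counts, 2, 1 and 9 genes were off in *AGO1* KO, *AGO2* KO and *AGO1/2* KO cells. The share among all genes expressed in wild-type cells was not counted at this limit. Unscaled counts make it stricter in the *AGO2* KO samples, which are the deepest. Leaving out 1 sample gave 12 to 14 genes lower in *AGO1/2* KO than in *AGO1* KO cells and 10 to 13 lower than in *AGO2* KO cells, 1 to 3 higher in *AGO1* KO than in wild-type cells, 6 to 10 and 8 to 13 lower in *AGO1* KO and *AGO2* KO than in wild-type cells, and 17 to 18 in *AGO1/2* KO cells. With a replicate block these counts of lower genes were 13, 12, 8, 10 and 18, and 2 were higher in *AGO1* KO than in wild-type cells; the block changed 1 call among the members against single knockout lines, *MIR200CHG* against *AGO2* KO cells (adjusted p = 0.0503). DESeq2 gave 12 and 13 genes lower against the single knockout lines. Single genes whose log2 difference changed sign never passed the threshold: *CSTA* against *AGO1* KO cells (-0.23 without *AGO1* replicate 1; -0.80 to 0.70 over all samples left out in turn), *TMEM125* against *AGO1* KO (-0.26 to 0.04), and, against *AGO2* KO cells, *LINC01714* (-0.25 to 0.43), *LNCAROD* (-0.62 to 0.26) and *DKK1* (-0.48 to 0.28). Of 482 re-estimates of members against *AGO1* KO cells 461 kept direction and call, and of 481 against *AGO2* KO cells 445 did. The cause of these changes was not tested. Counts of a few reads, as in *ANXA10*, *LRP1B* and *RHOBTB1*, limit how low a level can be told from 0.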

Other observations

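Over all genes tested, 19.8% were lower and 20.3% higher in *AGO1/2/3* KO than in wild-type cells (median log2 difference of -0.01). Between *AGO1/2* KO and *AGO1* KO cells 7.95% were lower and 11.5% higher, and between *AGO1/2* KO and *AGO2* KO cells 11.1% and 12.8%. Of 10 tested genes of DNA methylation and demethylation, 1 was lower and 8 were higher in *AGO1/2/3* KO than in wild-type cells, with a median log2 difference of 0.64. *TET1*, which oxidizes methylated cytosine, had 563 to 787 counts in wild-type and 1957 to 2576 in *AGO1/2/3* KO samples (log2 difference of 1.78, SE 0.13, adjusted p = 4.74e-08, edgeR). Between *AGO1/2* and the single knockout lines the 1 gene of the list called higher in each comparison was *TET1* (0.81 and 0.87, SE 0.12 each, adjusted p = 0.000265 and 0.000169). Of 24 tested serine proteases and inhibitors of epithelia, 13 were lower and 2 higher in *AGO1/2/3* KO cells (median -0.65), yet between *AGO1/2* KO and *AGO1* KO cells 0 were lower by edgeR (0 also at an unadjusted p under 0.05 and by DESeq2) and 9 higher (median 0.37). *KLK10*, a kallikrein-related peptidase, had 296 to 388 counts in wild-type, 42 to 62 in *AGO1* KO, 328 to 431 in *AGO1/2* KO and 93 to 139 in *AGO1/2/3* KO samples, and so rose between *AGO1* KO and *AGO1/2* KO cells (2.87, SE 0.18, adjusted p = 6.32e-08).

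Of 17 tested mesenchymal and matrix genes, 1 was lower and 7 were higher in *AGO1/2/3* KO than in wild-type cells (median 0.18). For this and the next lists, the shares over all genes tested were 19.8% lower and 20.3% higher. The summed level of the whole mesenchymal list was 9618 to 10660 normalized counts in wild-type and 21570 to 23960 in *AGO1/2/3* KO samples. A sum follows its most abundant genes, and the genes of the list did not move alike. *COL6A3* was lower (log2 difference of -1.39, SE 0.45, adjusted p = 0.0228, edgeR). *COL1A1* did not pass (0.09, SE 0.16, adjusted p = 0.695). *VIM*, the intermediate filament vimentin, had 99 to 161 counts in wild-type and 1400 to 1911 in *AGO1/2/3* KO samples (log2 difference of 3.64, SE 0.24, adjusted p = 2.51e-08). *THY1*, *PDGFRA*, *FAP*, *LUM*, *POSTN* and *MMP2* were at 10 counts or fewer in all 15 samples. Among 9 tested colorectal epithelium markers, 4 were lower and 1 higher (median 0.02). The 1 called higher was *KRT8* (0.41, SE 0.12, adjusted p = 0.0157, edgeR). The summed level of the whole epithelium list was 57160 to 64020 normalized counts in wild-type and 54350 to 70550 in *AGO1/2/3* KO samples. Of markers of other cell types, 2 of 4 tested blood and immune genes were lower (median -1.21), 0 of 3 endothelial genes passed by edgeR or DESeq2 (1 was higher at an unadjusted p under 0.05, median -0.30) and 1 of 5 neural genes was higher (median -0.24).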
